A study of Mus musculus with 6 samples.

Results

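The 10 genes described here encode chaperones, co-chaperones and disulfide isomerases of the lumen of the endoplasmic reticulum (ER) that are induced through the transcription factors ATF6 or XBP1. They were chosen by that role, with earlier results of these data known, out of 24914 genes to which the counted transcripts were matched. The 10 genes are Manf, Creld2, Sdf2l1, Pdia4, Pdia6, Hsp90b1, Calr, Dnajb9, Hyou1 and Dnajc3. RNA-seq read counts were compared between 3 libraries from mice fed a low-NaCl diet (0.01 to 0.02% sodium) and 3 libraries from mice fed a high-NaCl diet (2.4% sodium). All mice were male C57BL/6J, an inbred strain, were fed the diet for 5 days and provided collecting duct cells of the kidney; the labels give no age, no method of isolating the cells and no statement that each library came from its own animal. Each p-value is thus relative to the variation among the sequenced libraries, part or all of which could be technical.

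The collecting duct is the last tubule segment of the kidney, where aldosterone, released when sodium intake is low, raises sodium uptake through principal cells, while intercalated cells handle acid and base. Membrane and secreted proteins of these cells fold in the ER. When folding demand exceeds capacity, the unfolded protein response starts from 3 sensors of the ER membrane: ATF6, which is cut in the Golgi to release a transcription factor, IRE1 (gene Ern1), which splices the mRNA of XBP1, and PERK (gene Eif2ak3), which acts on translation and on ATF4. ATF6 and XBP1 bind ER stress elements in the promoters of chaperone genes together with the CCAAT-binding factor NF-Y.

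The promoters of the chaperones are shown first and were searched for the sequences on which this branch is known to act. RefSeq promoter sequences (build GRCm38.p6, from 250 bases before to 50 after the start of transcription) were found for 8 of the 10 genes; Manf and Hyou1 had no entry. The type I ER stress element, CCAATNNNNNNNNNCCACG on either strand, matched in 5 of these 8 genes, Creld2, Pdia6, Hsp90b1, Calr and Dnajc3. It matched in 37 of all 27025 genes of the table (0.137%). The 8 genes were chosen as targets of ATF6 or XBP1, which bind this element. The higher share therefore follows from that choice and is not a test. The following stretches are printed 5′ to 3′ on the strand of the gene, with the element in capitals. A stretch that begins its capitals with CGTGG carries the element on the opposite strand.
Creld2, chr15:88819510-88819548, plus strand: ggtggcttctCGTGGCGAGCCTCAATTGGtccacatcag
Pdia6, chr12:17266481-17266519, plus strand: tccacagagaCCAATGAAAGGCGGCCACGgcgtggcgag
Calr, chr8:84847065-84847103, minus strand: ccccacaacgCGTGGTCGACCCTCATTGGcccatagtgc
Dnajc3, chr14:118937817-118937855, plus strand: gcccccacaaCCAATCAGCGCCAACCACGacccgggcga
Hsp90b1, chr10:86705523-86705666, minus strand: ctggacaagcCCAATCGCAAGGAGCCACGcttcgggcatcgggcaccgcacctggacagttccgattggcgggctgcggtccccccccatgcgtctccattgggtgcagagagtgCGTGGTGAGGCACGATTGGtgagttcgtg

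The Hsp90b1 promoter held 2 full elements in opposite directions, from -212 to -194 and from -107 to -89 relative to the start, and further CCAAT boxes between them. The element of Creld2 lay from -126 to -108, that of Pdia6 from -98 to -80, that of Calr from -162 to -144 and that of Dnajc3 from -105 to -87. Neither the type II element, ATTGGNCCACG, nor the XBP1 element TGACGTGG matched in any of the 8 promoters, and they matched in 0.0444% and 0.714% of all genes. The type II search overlaps the type I search in its last 5 letters. Sdf2l1, Pdia4 and Dnajb9 had no full match in this window, although all 8 promoters held at least 1 CCAAT (41.1% of all genes) and at least 1 CCACG (35.5%) on either strand. When 1 of the fixed letters of the type I element was allowed to differ, a search added after the exact matches were seen, Pdia4 matched as well, giving 6 of 8 genes against 1.72% of all genes. These matches describe letters and not binding.

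**Figure D1:**
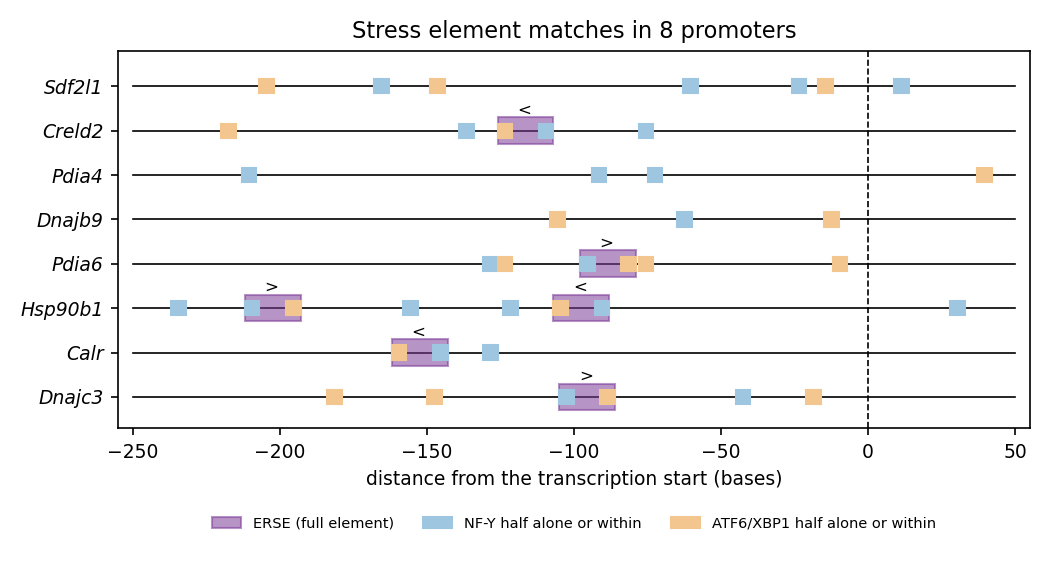
Promoters of 8 chaperone genes drawn by distance from the transcription start in bases, with full type I ER stress elements in purple (arrowheads give the direction), the CCAAT part in blue and the CCACG part in orange. Full elements appear in 5 promoters, all before the start, with 2 in Hsp90b1.

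Counts were deposited for UCSC transcripts, and reads in exons shared by several transcripts appear not to have been counted. The countable share, the percentage of a gene's exonic bases that lie in exons of a single transcript, was complete for Creld2, Sdf2l1, Calr, Dnajb9 and Dnajc3, and was 99.4% for Pdia4, 85.0% for Hsp90b1 and 56.6% for Pdia6. It was only 13.0% for Manf and 7.65% for Hyou1. Hyou1, which encodes the nucleotide exchange factor that recharges the ER chaperone BiP, held 4, 0 and 0 reads in the low-NaCl libraries against 5, 7 and 3 in the high-NaCl libraries and was not tested. The other 9 genes passed the filter on low counts in both diets, with at least 232 reads in every library. Values below are CPM, counts per 1000000 reads scaled between libraries by TMM (trimmed mean of M-values), listed in the order of libraries 1, 2 and 3.

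On the low-NaCl diet 6 of the 9 tested chaperone genes were higher at an adjusted p under 0.05 and none was lower, against 1.72% of all 10564 tested genes that were higher and 1.74% that were lower. Earlier results of these data were known when the genes were chosen, so the shares of all genes given here are a description and not an independent test. The other 3, Hsp90b1, Calr and Dnajc3, lay above 0 in log2 fold change and did not pass the threshold. In all 9 every low-NaCl library lay above every high-NaCl library, which held for 12.3% of all tested genes. The median log2 fold change of the 9 genes was 0.94, against 0.00 for all tested genes, and their range was 0.59 to 2.18. At an unadjusted p under 0.05 all 9 were higher and 0 were lower, against 9.17% of all tested genes that were higher. DESeq2 called 9 of the 9 higher (3.87% of all genes it tested), and limma-voom with sample weights called 8 (4.87%), so the calls of Hsp90b1, Calr and Dnajc3 depend on the tool. In bulk RNA, more cells of a type that expresses these genes and more RNA per cell cannot be told apart.

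Manf and Creld2 encode small ER proteins that are also secreted. Manf, a neurotrophic factor that is held in the ER and released under ER stress (chromosome 9, 106838312 to 106891979, minus strand), had 29.4, 24.3 and 38.5 CPM in the low-NaCl libraries, against 6.77, 7.42 and 6.17 CPM in the high-NaCl libraries. Its lowest low-NaCl library was 3.27 times its highest high-NaCl library. The log2 fold change of 2.18 ± 0.20 (SE; adjusted p = 0.00273, edgeR) had the third smallest p-value of all tested genes. Creld2, a protein with disulfide isomerase activity (chromosome 15, 88819646 to 88826683, plus strand), had 170.0, 160.5 and 249 CPM in the low-NaCl libraries, against 48.9, 60.6 and 52.5 CPM in the high-NaCl libraries. The libraries of the diets lay far apart, by a factor of 2.65 between the nearest ones. The log2 fold change was 1.84 ± 0.19 (adjusted p = 0.0036).

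Co-chaperones work with BiP, the ER member of the heat shock protein 70 family. Sdf2l1, an ER protein that binds BiP co-chaperones (chromosome 16, 17130138 to 17132383, minus strand), had 226, 159 and 283 CPM in the low-NaCl libraries, against 58.0, 51.3 and 74.1 CPM in the high-NaCl libraries. Low-NaCl library 2 was its lowest low-NaCl value and still 2.15 times the highest high-NaCl value. This corresponds to a log2 fold change of 1.87 ± 0.22 (adjusted p = 0.00658). Dnajb9, a J-domain co-chaperone that also holds IRE1 inactive (chromosome 12, 44205559 to 44210326, minus strand), had 114, 119 and 138 CPM in the low-NaCl libraries, against 63.9, 62.2 and 67.9 CPM in the high-NaCl libraries. This was the tightest of the 9 genes within the high-NaCl diet, with a coefficient of variation of 4.57%. Its log2 fold change was 0.94 ± 0.13 (adjusted p = 0.00854). Dnajc3, a J-domain co-chaperone known as an inhibitor of PERK (chromosome 14, 118937976 to 118981697, plus strand), had 177, 188 and 208 CPM in the low-NaCl libraries, against 108, 118 and 154 CPM in the high-NaCl libraries. Its libraries came closest to overlapping, with a factor of 1.15 between the nearest ones. A log2 fold change of 0.59 ± 0.16 did not pass (adjusted p = 0.0797).

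Pdia4 and Pdia6 encode protein disulfide isomerases, which form and rearrange disulfide bonds. Pdia4 (chromosome 6, 47796141 to 47813430, minus strand) had 437, 481 and 619 CPM in the low-NaCl libraries, against 163, 231 and 165 CPM in the high-NaCl libraries. High-NaCl library 2 stood above the other high-NaCl libraries and below all low-NaCl libraries. The log2 fold change was 1.46 ± 0.20 (adjusted p = 0.00743), and without high-NaCl library 3 the call ended (log2 fold change 1.38, adjusted p = 0.0505). Pdia6 (chromosome 12, 17266545 to 17284770, plus strand) had 366, 336 and 378 CPM in the low-NaCl libraries, against 168, 236 and 222 CPM in the high-NaCl libraries. The low-NaCl libraries agreed within a coefficient of variation of 5.94% and the high-NaCl libraries within 17.2%. Its log2 fold change was 0.78 ± 0.16 (adjusted p = 0.0332), a call that was kept only without high-NaCl library 2 (0.0193) and ended without any other library (0.0507 to 0.119).

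Hsp90b1 and Calr encode chaperones that hold folding proteins in the ER. Hsp90b1, the ER member of the heat shock protein 90 family (chromosome 10, 86690209 to 86705509, minus strand), had 769.6, 706 and 909 CPM in the low-NaCl libraries, against 431, 451 and 599 CPM in the high-NaCl libraries. High-NaCl library 3 came within a factor of 1.18 of the lowest low-NaCl library. Its log2 fold change was 0.69 ± 0.18 (adjusted p = 0.071). Calr, which encodes calreticulin, a calcium-binding chaperone for glycoproteins (chromosome 8, 84841850 to 84846934, minus strand), had 2846, 2542 and 3130.4 CPM in the low-NaCl libraries, against 1814, 1649.6 and 2035 CPM in the high-NaCl libraries. The nearest libraries of the diets differed by a factor of 1.25. The log2 fold change was 0.63 ± 0.17 (adjusted p = 0.0765).

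**Figure D2:**
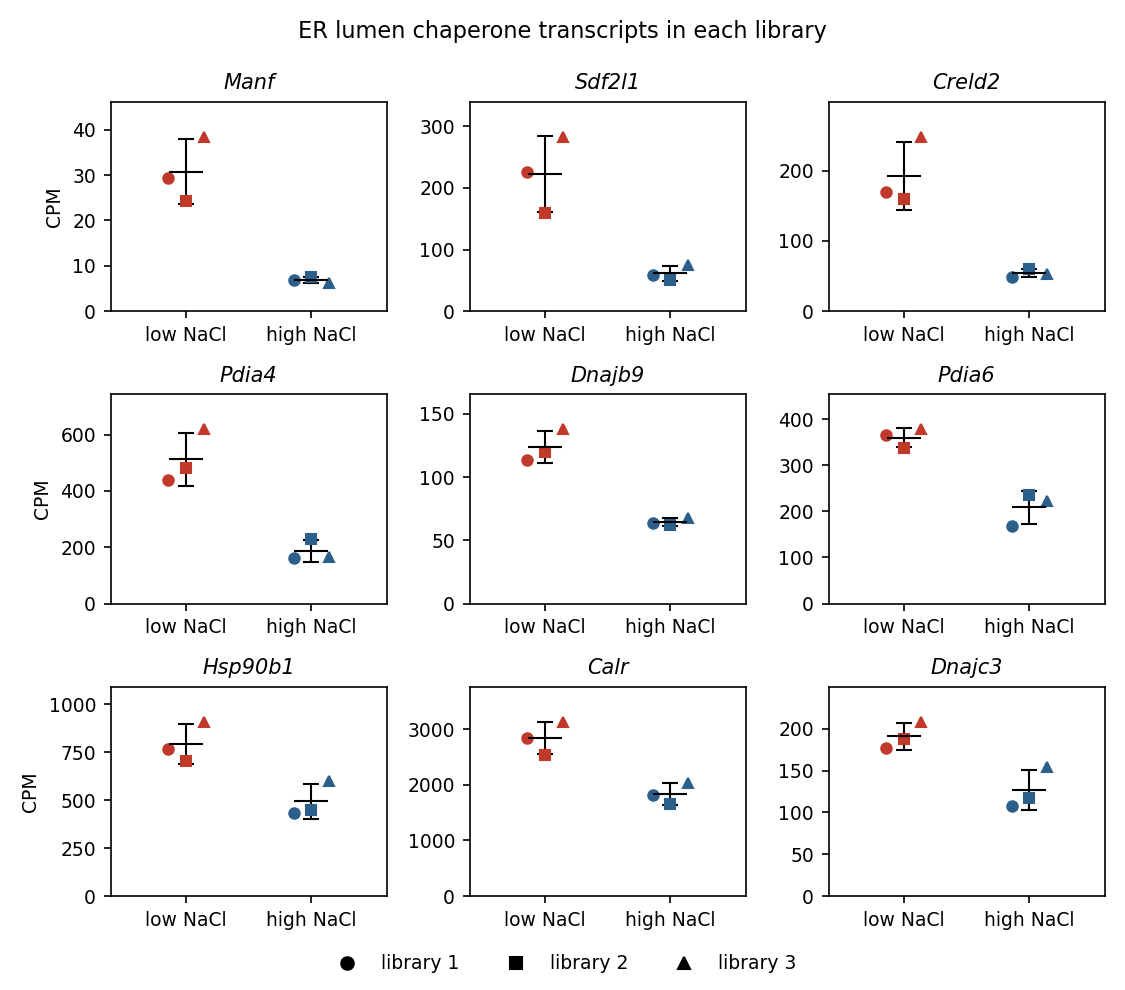
CPM of the 9 tested chaperone genes in each library, with low NaCl left of high NaCl; symbols mark library 1, 2 or 3, and bars give the mean ± SD (n = 3). In every panel the 3 low-NaCl libraries lie above the 3 high-NaCl libraries, and low-NaCl library 3 is the highest.

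The low-NaCl libraries were not equal. Low-NaCl library 3 was the highest of the 6 libraries in 9 of 9 genes, and the lowest low-NaCl library was library 2 in 6 genes and library 1 in the other 3. Relative to each gene's high-NaCl mean, the median of the 9 genes was 1.76, 1.85 and 2.13 in the low-NaCl libraries and 0.905, 0.961 and 1.06 in the high-NaCl libraries. Without low-NaCl library 3 the median log2 fold change was 0.85, and 5 of the 9 genes were called higher (0.543% of all tested genes). Manf, Creld2, Sdf2l1 and Dnajb9 were called higher without each library in turn, with adjusted p-values of up to 0.046.

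**Figure D3:**
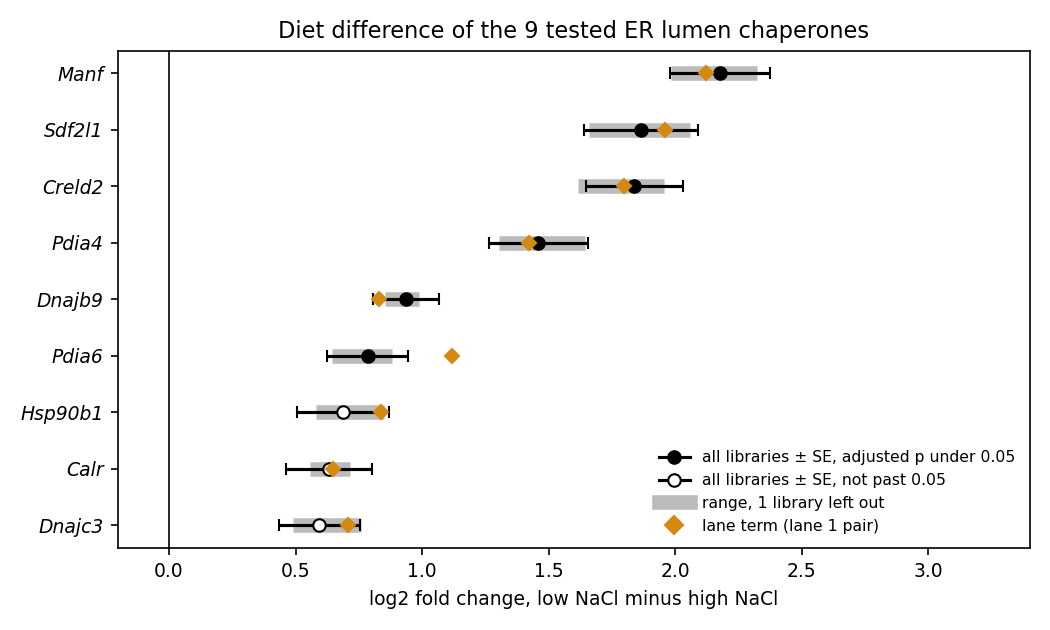
Log2 fold change (low NaCl minus high NaCl) of the 9 tested chaperone genes, with SE bars, filled where the adjusted p was under 0.05; grey bars give the range when 1 library is left out, and orange diamonds the fit with sequencing lane as a term. All values lie above 0, from 0.59 for Dnajc3 to 2.18 for Manf, and the lane-term value lies above the grey bar for Pdia6 (1.12) and just below it for Dnajb9 (0.83).

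The libraries were spread over 3 sequencing lanes, and lane was partly confounded with diet. Per the file headers, both first libraries were sequenced in lane 1, the other low-NaCl libraries in lane 2 and the other high-NaCl libraries in lane 3, so a fit with lane as a term rests the diet difference on the lane 1 pair. In that pair the log2 differences were 2.12 for Manf, 1.96 for Sdf2l1, 1.80 for Creld2, 1.42 for Pdia4, 1.12 for Pdia6 and 0.83 for Dnajb9. Those of Hsp90b1, Dnajc3 and Calr were 0.84, 0.71 and 0.65. With the lane term edgeR called none of the 9 genes (adjusted p from 0.178 to 0.463), while 8 of 9 were higher at an unadjusted p under 0.05, against 5.88% of all tested genes, and after adjustment it called 1 gene higher (0.00947%) and 2 lower among all tested. The median log2 fold change of the 9 genes was 1.12 with the lane term, against 0.94 without it. The largest gap was that of Pdia6, at 1.12 against 0.78. The lane 1 pair is itself part of all libraries, and the part of lane in the chaperone difference was not tested.

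Calr had the highest transcript level per length on both diets, whichever bases were counted, while the order below it depends on them. In CPM per kilobase of countable exon, Calr stood first at 1461 ± 151 in the low-NaCl and 943 ± 99.5 in the high-NaCl libraries (mean ± SD, n = 3). Hsp90b1 followed at 339 ± 44.4 and 211 ± 39.1, and then Pdia6 at 222 ± 13.2 and 129 ± 22.1. Pdia4 (208 ± 38.4 and 75.5 ± 15.6) and Sdf2l1 (201 ± 55.9 and 55.2 ± 10.6) came next, and Pdia6, Pdia4 and Sdf2l1 did not differ beyond their spread on the low-NaCl diet. Creld2 measured 142 ± 35.5 and 39.6 ± 4.41. Manf (98.5 ± 23.0 and 21.7 ± 2.0), Dnajb9 (66.3 ± 6.75 and 34.7 ± 1.58) and Dnajc3 (36.8 ± 3.08 and 24.4 ± 4.62) were lowest by this measure. For Manf and Pdia6 the countable bases include those of a second transcript with almost no reads, and 99.7% of the Manf reads fell in 125 bases and 99.5% of the Pdia6 reads in 880 bases of the other transcript. Per kilobase of those bases, a measure added after the values were seen, Pdia6 stood at 407 ± 24.6 in the low-NaCl and 237 ± 40.5 in the high-NaCl libraries, above Hsp90b1. Manf stood at 245 ± 57.5 and 54.2 ± 4.91, next above Pdia4 on the low-NaCl diet and between Sdf2l1 and Creld2 on the high-NaCl diet. Over the full exonic length the low-NaCl and high-NaCl values were 126 and 72.9 for Pdia6, below Pdia4 on both diets and below Sdf2l1 and Creld2 on the low-NaCl diet, and 12.8 and 2.84 for Manf. The places of Pdia6, Hsp90b1 and Manf are therefore not fixed by these counts.

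Other genes of ER folding lay mostly above 0, with calls in both directions. Of 32 further genes of folding in the ER lumen 23 were tested, of which 2 rose and 1 fell, with a median log2 fold change of 0.19. DESeq2 called 3 higher and 1 lower. A positive log2 fold change was found in 17 of the 23. All low-NaCl libraries lay above all high-NaCl libraries in 8 genes and below them in 4. At an unadjusted p under 0.05 edgeR had 7 higher and 2 lower. Pdia5, another disulfide isomerase, had 9.22, 11.8 and 14.9 CPM in the low-NaCl libraries, against 6.30, 5.09 and 6.17 CPM in the high-NaCl libraries (log2 fold change 1.04 ± 0.21, adjusted p = 0.0326). Dnajb11, a J-domain co-chaperone of BiP, had 73.9, 74.5 and 88.3 CPM in the low-NaCl libraries, against 37.2, 48.3 and 37.8 CPM in the high-NaCl libraries (log2 fold change 0.94 ± 0.15, adjusted p = 0.0134). Both genes therefore moved in the direction of the 9 chaperones and with separated libraries. The Dnajb11 promoter held a type II ER stress element. The gene that fell was Prdx4, an ER peroxidase that oxidises disulfide isomerases, with 14.5, 11.8 and 16.2 CPM in the low-NaCl libraries, against 30.5, 22.7 and 26.9 CPM in the high-NaCl libraries (log2 fold change -0.91 ± 0.17, adjusted p = 0.0259). Sdf2, the paralogue of Sdf2l1, averaged 217 ± 23.6 CPM in the low-NaCl and 200.2 ± 14.1 CPM in the high-NaCl libraries, with a log2 fold change of 0.12 ± 0.14 (adjusted p = 0.715). Hspa5, which encodes BiP, had no counted read in any library, with 3.13% of its exonic bases countable, so the best known gene of this branch gave no measurement.

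The sensors that lie upstream gave no call. Of 15 genes of sensors and transcription factors of the response 9 were tested and edgeR called none, with 1 at an unadjusted p under 0.05 and none called by DESeq2 or limma-voom. That 1 gene was Atf6, which averaged 74.2 CPM in the low-NaCl and 59.7 CPM in the high-NaCl libraries (edgeR, log2 fold change 0.31 ± 0.13, unadjusted p = 0.0357, adjusted p = 0.231). Every low-NaCl library of Atf6 lay above every high-NaCl library. For Eif2ak3 the log2 fold change was 0.32 ± 0.17 (adjusted p = 0.347). Xbp1 and Ern1, with 1.04% and 12.8% of exonic bases countable, had at most 7 and 11 reads in a library and were not tested, and the splicing of Xbp1 cannot be read from these counts.

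Of 45 genes of ER translocation, glycosylation and degradation 34 were tested, 2 rose and 0 fell, and the median log2 fold change was 0.31. In this list 30 of 34 genes had a positive log2 fold change, 16 had all low-NaCl libraries above all high-NaCl libraries, and 15 were higher at an unadjusted p under 0.05. The number called depended on the tool, with 6 higher by DESeq2 and 11 by limma-voom with sample weights, and none lower by either. The genes that rose were Syvn1, the ubiquitin ligase of ER-associated degradation, and Ostc, a subunit of the oligosaccharyltransferase. Syvn1 had 5.59, 5.10 and 7.19 CPM in the low-NaCl libraries, against 2.59, 1.89 and 3.01 CPM in the high-NaCl libraries (log2 fold change 1.26 ± 0.24, adjusted p = 0.026; 20.7% countable). Its promoter is shown because it also held a full type I element within the stretch from -54 to -16.
Syvn1, chr19:6046522-6046560, plus strand: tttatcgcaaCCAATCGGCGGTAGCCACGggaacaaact

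Of 20 tested genes of the ATF4 branch, the arm of the response driven by PERK, 2 rose and none fell, with a median of 0.40, and DESeq2 called 5 higher and none lower. Ddit3, which encodes the transcription factor CHOP, averaged 49.9 ± 5.69 CPM in the low-NaCl and 30.4 ± 2.69 CPM in the high-NaCl libraries (log2 fold change 0.71 ± 0.14, adjusted p = 0.0287). Nupr1, a stress-induced transcriptional regulator, averaged 61.9 ± 14 CPM in the low-NaCl and 27.6 ± 7.47 CPM in the high-NaCl libraries (log2 fold change 1.17 ± 0.22, adjusted p = 0.0257). Atf4 itself, at a log2 fold change of 0.48 ± 0.15, did not pass (adjusted p = 0.12), and its activity is set largely by translation, which these counts do not show. Of 11 tested cytosolic and mitochondrial heat shock genes 1 rose, Hspe1 (log2 fold change 0.60 ± 0.14, adjusted p = 0.0448), and none fell, with a median of 0.36, and DESeq2 called 2 higher and 1 lower. The differences between these lists and the 9 chaperones were not tested.

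**Figure D4:**
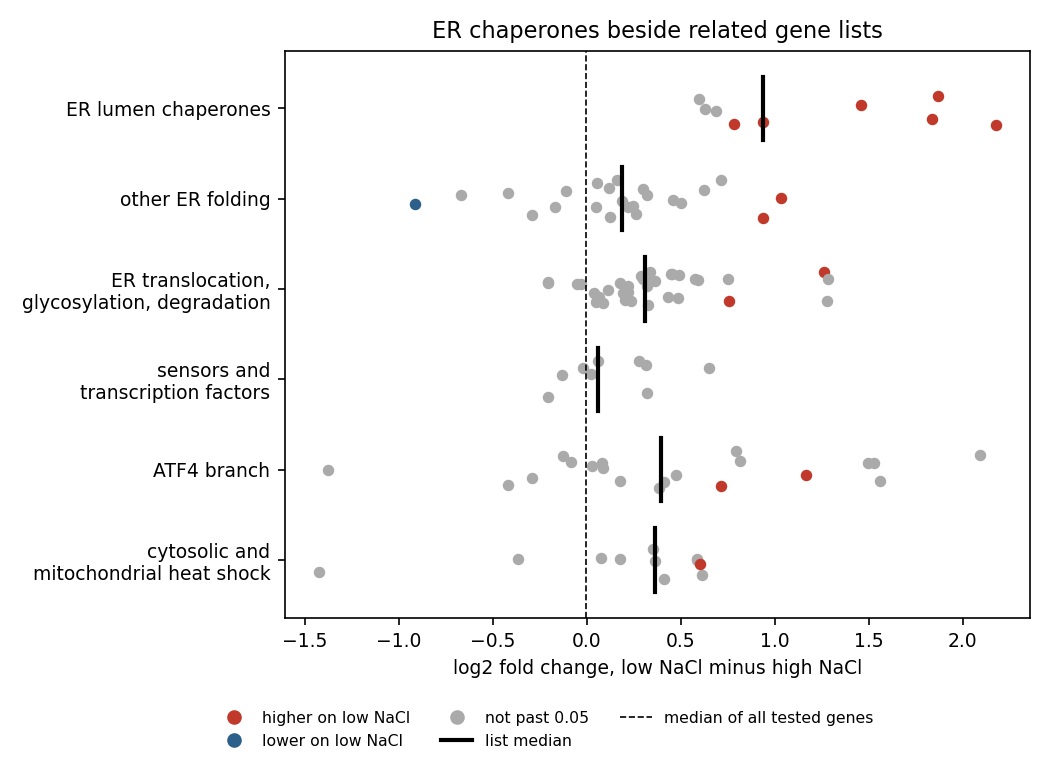
Log2 fold change (low NaCl minus high NaCl) of each tested gene in the chaperone list and 5 related lists, in red where higher and blue where lower on low NaCl at an adjusted p under 0.05; black bars give list medians and the dashed line the median of all tested genes. The 9 chaperones all lie above 0 with a median of 0.94, while the medians of the other lists lie between 0.06 and 0.40.

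Markers of cell types and immediate early genes also differed between the diets. The summed CPM of the 10 chaperone genes was 5134, 4717 and 5953 in the low-NaCl libraries, against 2862, 2867 and 3375 in the high-NaCl libraries. The summed CPM of 14 intercalated cell markers was 3182, 4156 and 6146 in the low-NaCl libraries, against 2405, 2026 and 2234 in the high-NaCl libraries, and 8 of 13 tested markers rose. That of 10 principal cell markers was 4786, 3148 and 4299.7 in the low-NaCl libraries, against 10961, 9739.7 and 8805 in the high-NaCl libraries, and 3 of 8 tested markers fell. Every low-NaCl library lay above every high-NaCl library in all 13 tested intercalated markers (12.3% of all tested genes). The reverse order held in 7 of the 8 tested principal markers (11.6%). DESeq2 called 11 of the intercalated markers higher (3.87% of all genes it tested) and 7 of the principal markers lower (4.24%). Aqp2 made up 70.7% of the principal cell sum. A countable share of at least 50% held for 3 of the 8 tested principal and 10 of the 13 tested intercalated markers. In the lane 1 pair the chaperones were 1.79-fold and the intercalated markers 1.32-fold higher in the low-NaCl library, against 1.74-fold and 2.02-fold over all libraries. Low-NaCl library 3, the highest for both, held 1.93 times the intercalated marker sum and 1.16 times the chaperone sum of low-NaCl library 1. Calr makes up 56.3% of the chaperone sum, and gene by gene the same ratio was 1.46 for Creld2, 1.42 for Pdia4, 1.31 for Manf, 1.25 for Sdf2l1, 1.21 for Dnajb9 and 1.03 for Pdia6. For Hsp90b1, Dnajc3 and Calr it was 1.18, 1.18 and 1.10. The median ratio was 1.21 over the 9 chaperones and 2.12 over the 13 tested intercalated markers. Over the 8 intercalated markers that rose it ranged from 1.08 to 6.22, so the 2 lists overlapped in this ratio. The part of cell composition in the chaperone difference was not tested.

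Immune cell markers were near 0, with 11 of 11 counted markers under 1 CPM in every library and sums of 0.660 to 1.27 CPM in the low-NaCl and 0.825 to 1.36 CPM in the high-NaCl libraries. Among them Mzb1 and Jchain, markers of antibody-secreting cells, which are rich in ER chaperones, reached at most 0.307 and 0.296 CPM in the low-NaCl and 0.160 and 0.399 CPM in the high-NaCl libraries. A low count can also come with a low countable share, as for Hspa5, and the absence of these cells was not tested. Proximal tubule markers other than Aqp1, which makes up 98.4% of that list's sum and is found in other cells too, summed to 21.4 to 39.5 CPM in the low-NaCl and 33.3 to 37.5 CPM in the high-NaCl libraries, and none of the 9 tested was called (edgeR; 1 higher and 1 lower at an unadjusted p under 0.05, none by DESeq2 or limma-voom, 1 lower with sample weights). Aqp1 itself had 1705 to 3447 CPM in the low-NaCl and 939 to 2170 CPM in the high-NaCl libraries and overlapped. Of 3 tested connecting tubule markers 2 fell, Calb1 (413 ± 59.1 CPM in the low-NaCl and 1058 ± 146 CPM in the high-NaCl libraries, adjusted p = 0.00658) and Trpv5 (log2 fold change -1.43 ± 0.32, adjusted p = 0.0417). Of 6 tested markers of the thick limb and distal convoluted tubule 4 had all low-NaCl libraries above all high-NaCl libraries and 1 rose, Slc12a1 (61.6 ± 3.55 CPM in the low-NaCl and 32.6 ± 5.72 CPM in the high-NaCl libraries, adjusted p = 0.0159), and DESeq2 called 3 higher. Of the 6 tested markers of the thick limb and distal convoluted tubule, 0 had a countable share of at least 50%. The part of these cell types in the chaperone difference was not tested. Immediate early genes, which tissue dissociation is known to induce, summed to 1483 to 1692 CPM in the low-NaCl and 2536 to 3086 CPM in the high-NaCl libraries. The part of dissociation in this difference was not tested. Mitochondrial reads made up 20.5 to 21.8% of counts in the low-NaCl and 21.9 to 29.9% in the high-NaCl libraries. Without the 2 high-NaCl libraries over 25%, which leaves high-NaCl library 2 alone for that diet, the median log2 fold change of the chaperones was 0.98, and 4 of the 9 were called higher (0.269% of all tested genes), a fit that assumes the lone library to vary like the low-NaCl libraries. In that fit the calls of Pdia4 (adjusted p = 0.0742) and Pdia6 (0.189) ended.

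**Figure D5:**
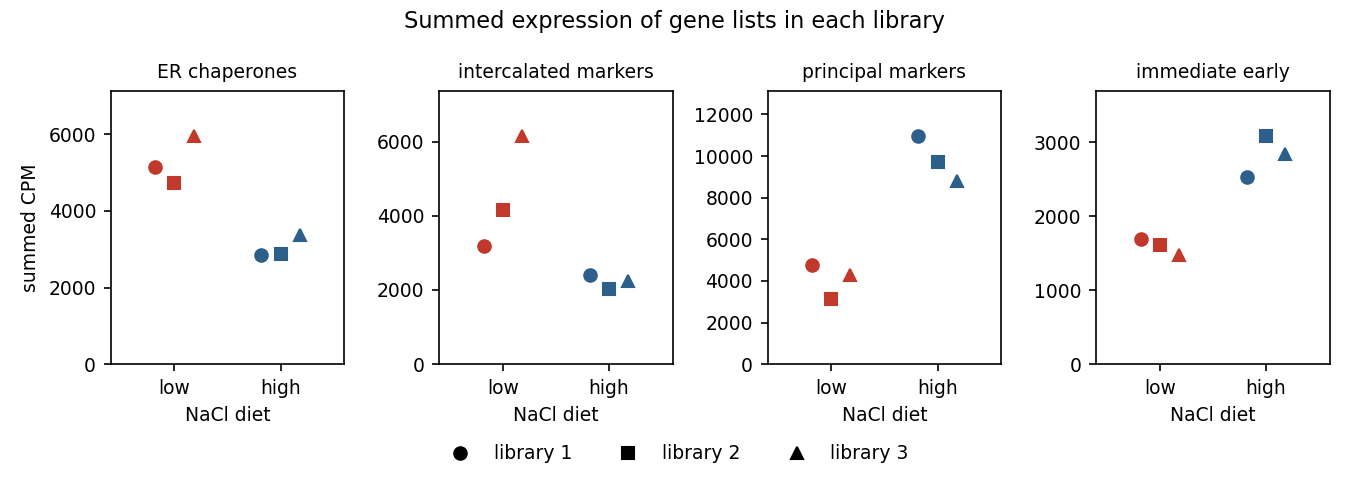
Summed CPM per library of the 10 ER lumen chaperones, 14 intercalated cell markers, 10 principal cell markers and 13 immediate early genes, with low NaCl left of high NaCl and symbols for library 1, 2 or 3. The chaperones and intercalated markers lie higher and the principal markers and immediate early genes lower in all low-NaCl libraries.

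The genes with the pattern most like the chaperones over the 6 libraries were found by Pearson correlation of log2 CPM with the mean standardised profile of the 9 chaperones, among 6878 other genes. The 8 nearest were Atp6v1b2, Tldc2, Pappa2, H13, Ppa1, Dpp9, Timm8a1 and Mogs, with r between 0.989 and 0.997. These are the highest of many values over 6 libraries that share the diets, and so a description only. Of them Tldc2, Pappa2 and Ppa1 rose. Pappa2, a protease of insulin-like growth factor binding proteins, had 6.24, 6.81 and 13.5 CPM in the low-NaCl libraries, against 0.825, 0.841 and 1.04 CPM in the high-NaCl libraries. Mogs, the glucosidase that trims the first glucose from N-glycans in the ER, had 82.5, 82.3 and 84.8 CPM in the low-NaCl libraries, against 65.5, 65.4 and 67.5 CPM in the high-NaCl libraries. The Mogs difference was small and even between libraries, at a log2 fold change of 0.33 ± 0.11 (adjusted p = 0.152).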

How the data were processed

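The authors deposited raw read counts per UCSC transcript, made with featureCounts 1.5.0-p3 over exons of build mm10 with no strand or overlap option, per the file headers. FastQC, Subread and edgeR appear in the submitters' processing notes. The aligner is not given in the sources used here. Depth was 40101899 to 46861531 counts per library; it and the countable share limit the precision of each gene.

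The 59121 identifiers were matched on the same strand to GENCODE M21 (GRCm38, the mm10 assembly) by identical introns or at least 50% of exonic bases (bedtools 2.31.1), and summed by symbol to 24914 genes; those without a match (5.57% of counts) were used only in library sizes. All 10564 genes passing filterByExpr were tested together with edgeR 4.0.16 (R 4.3.3, TMM, glmQLFit with robust estimation, glmQLFTest, diet only; SE is the log2 fold change over the root of F), with Benjamini-Hochberg adjustment over all of them at 0.05. Alternatives included DESeq2 1.42.0 and limma-voom (limma 3.58.1), other scalings, filters and matchings, lane and replicate terms, and each library left out. On simulated counts of 10386 genes the fit recovered 65 of 100 genes changed 2-fold and 98 of 100 changed 4-fold, with 2.4% of its 167 calls false. The simulated counts had the same biological variation for every gene and no lane effect, so the false share may differ in these data. A chi-square statistic between libraries of the same diet was at least 38.1 per degree of freedom, so no such pair differed by counting error alone. It cannot show whether the libraries came from separate animals.

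The 10 genes and the comparison lists were chosen with earlier results of these data known. All 10 were named, with the sensors, the called genes of the ER, ATF4 and heat shock lists, defining cell markers, and the 8 genes of most similar pattern; Prdx4, Sdf2, Mogs and Pappa2 got values for their role. Promoters are from RefSeq. Lanes were read from the file headers. Without strand, overlapping genes cannot be told apart.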

Additional observations from a re-analysis of the deposited data

How the results depend on the processing

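All 9 tested chaperones had a positive log2 fold change under each alternative run. The number called higher, 6, was 4 to 6 with 1 library left out (median log2 fold change 0.85 to 0.99), 9 with DESeq2 (background 3.87% of genes higher), 8 with limma-voom and sample weights (4.87%) and 0 with a lane term (median 1.12). Hsp90b1 was called with DESeq2, sample weights, the replicate block and no filter, Calr with the first 3 of these and total-count scaling, and Dnajc3 with DESeq2 and the block. With the replicate number as a block, 9 chaperones were called higher (4.40% of genes). Same-numbered libraries deviated from their diet means with correlations of 0.19, 0.27 and -0.07, against -0.29 to 0.10 for differently numbered libraries. These values do not settle whether the numbers mark pairs, and the main fit did not take them as pairs. Over all genes, higher and lower calls (182 and 184) were 465 and 447 with the block, 409 and 448 with DESeq2, 514 and 523 with sample weights, 81 and 55 with total-count scaling, 1 and 2 with the lane term, 31 and 92 without libraries over 25% mitochondrial, and 34 to 292 and 36 to 254 with 1 library left out; lower calls were 280 with no filter. With each transcript alone the median of the 10 tested chaperone transcripts was 1.19. Pdia6 lost its call with total-count scaling (adjusted p = 0.0767). On the strand of the gene alone 3 promoters held the type I element. The cause of these changes was not tested. Manf and Hyou1 are limited by their countable share.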

Other observations

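Besides the chaperones, 32 other genes had a promoter with a full type I element, and only 6 of them were tested. Of these 6 genes 1, Syvn1, rose and none fell. Their median log2 fold change was 0.28, with 3 of 6 above 0. Alg12, which adds a mannose to the glycan precursor in the ER, averaged 8.35 ± 0.997 CPM in the low-NaCl and 4.97 ± 0.853 CPM in the high-NaCl libraries (mean ± SD, n = 3; log2 fold change 0.75 ± 0.20, adjusted p = 0.071 by edgeR).

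The less counted transcript of Pdia6 made up 0.435, 0.731 and 0.562% of the gene's counted reads in the low-NaCl libraries, against 0.311, 0.453 and 0.215% in the high-NaCl libraries. The diets overlapped in this share, and its exact 95% binomial interval in low-NaCl library 1 was 0.335 to 0.555%, which covers counting error only.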
